A study of Rattus norvegicus with 4 samples.

Results

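The insulin-like growth factor (IGF) system was followed through 9 genes: the ligands Igf1 and Igf2, the receptor gene Igf1r and the binding protein genes Igfbp2, Igfbp3, Igfbp4, Igfbp5, Igfbp6 and Igfbp7. Every probe set whose platform annotation named exactly 1 of these symbols was taken, and 9 of the 13811 genes named on either array design were found in this way. The day 1 design carried all 9, by 17 probe sets, and the day 3 design carried Igf1, Igf1r and Igfbp5, by 4 probe sets. None of these probe sets lay on both designs, so each day was read within its own pair of arrays.

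The arrays came from the cochlear lateral wall of female Sprague-Dawley rats of 8 to 10 weeks and 180 to 210 g, with no genetic change named in the labels. 3-nitropropionic acid (3-NP), which blocks mitochondrial complex II, was infused at 300 mM at the left round window niche, and the tissue was taken at day 1 (1 array) or day 3 (1 array). Saline infusion served as the control at day 1 (1 array) and at day 3 (1 array). In all 4 groups the right cochlea had been destroyed by surgery, and how many animals each array stands for is not stated in the labels. Each group had a single array, so no difference could be checked against replicates and none was tested.

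IGF-1 and IGF-2 act through the receptor tyrosine kinase IGF1R, which signals through insulin receptor substrates to the PI3K-AKT and RAS-MAP kinase pathways. Most of the IGFs outside cells are held by the binding proteins IGFBP-1 to IGFBP-6, which lengthen their life and control their access to the receptor, and proteases that cut the binding proteins set the ligands free. IGFBP-7 binds IGFs only weakly. In the inner ear the system is known from mice and humans without IGF-1, which are deaf or hard of hearing.

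At day 1 the 3-NP array had more than 2-fold higher signals of Igfbp3, Igfbp4 and Igfbp5 than the saline array, relative to the median gene of the pair. Igf1, Igfbp2 and Igfbp7 lay close to that median, Igfbp6 slightly above it, and Igf1r and Igf2 below it by less than 2-fold. At day 3 Igfbp5 was again more than 2-fold higher in 3-NP by its brighter probe set, and just under 2-fold by the other. Igf1r was just over 2-fold lower and Igf1 lay close to the median. The 2-fold calls of Igfbp3 at day 1 and Igf1r at day 3 did not hold under every processing choice. These statements compare single arrays, and in tissue RNA fewer cells of a type and less RNA per cell cannot be told apart.

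Because Igfbp3, Igfbp4, Igfbp5 and Igf1r are the genes that were 2-fold apart on either day, the 150 bases before their RefSeq starts are shown, 5′ to 3′ on the strand of the gene in the GRCr8 assembly. The windows are chr14:86277945-86278094 on the minus strand for Igfbp3, chr10:84491321-84491470 on the plus strand for Igfbp4, chr9:81914188-81914337 on the minus strand for Igfbp5 and chr1:130959847-130959996 on the plus strand for Igf1r. Capitals mark a match to a motif searched on both strands.
Igfbp3: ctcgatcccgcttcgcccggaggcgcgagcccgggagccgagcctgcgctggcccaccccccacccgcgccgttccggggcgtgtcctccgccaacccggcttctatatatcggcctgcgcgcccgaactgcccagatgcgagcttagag
Igfbp4: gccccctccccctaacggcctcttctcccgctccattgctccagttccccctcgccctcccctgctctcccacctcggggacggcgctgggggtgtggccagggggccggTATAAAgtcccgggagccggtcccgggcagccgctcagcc
Igfbp5: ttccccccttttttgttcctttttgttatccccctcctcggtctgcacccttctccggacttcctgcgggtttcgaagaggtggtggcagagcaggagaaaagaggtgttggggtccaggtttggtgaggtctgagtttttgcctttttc
Igf1r: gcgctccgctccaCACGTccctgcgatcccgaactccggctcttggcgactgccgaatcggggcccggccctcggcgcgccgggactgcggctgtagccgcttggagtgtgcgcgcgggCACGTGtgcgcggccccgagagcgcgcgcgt

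The motifs were the TATA box core TATAAA, held by 8.00% of 33469 RefSeq windows of this length, the GC box GGGCGG (26.0%), the AP-1 site TGANTCA (3.69%), the C/EBP core TTGCNNAA (5.37%), the hypoxia response core ACGTG (10.8%) and the NF-kB core GGANTTTCC (0.621%). Overlapping matches to a motif were counted as 1 place. The Igfbp4 window held TATAAA, beginning 40 bases before the start, and the Igf1r window held ACGTG at 2 places, the nearer of them in the palindrome CACGTG beginning 31 bases before the start. No motif was found in the Igfbp3 and Igfbp5 windows, so the 3 binding protein genes with higher signals shared none of these letters there. The windows of Igf1r (76.0% G and C), Igfbp4 (73.3%) and Igfbp3 (72.7%) were richer in G and C than the median window (52.7%), and that of Igfbp5 (52.7%) was not. In the same assembly Igfbp5 is the next protein-coding gene after Igfbp2 on chromosome 9, and Igfbp3 the next after Igfbp1 on chromosome 14.

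The deposited values are MAS5 signals, a linear measure of probe set brightness in arbitrary units. The median signal of the day 1 arrays was 60.7 in 3-NP and 44.9 in saline. Differences are therefore given as the log2 ratio of 3-NP over saline less the median of that ratio over measured genes, which was 0.44 at day 1 and 0.10 at day 3. A gene was measured when its brightest probe set reached the array median on at least 1 array of the pair, which left 6533 genes at day 1 and 3972 at day 3. A signal under the 30th percentile of its array was set to that floor and gives only a bound. As a technical yardstick, the SD per probe set was taken from genes with at least 2 measured probe sets, giving 0.35 over 733 genes at day 1 and 0.44 over 767 genes at day 3. It covers probe sets, not animals.

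The tissue label was set against fibrocyte markers of the spiral ligament, the connective tissue of the lateral wall. All 11 of these markers on the day 1 design passed the filter, among them Gjb2, Gjb6 and Car3. Of the 11, 9 reached the array median on both arrays. S100a4 and Slc4a4 passed only through the 3-NP array, in which they were the higher. At day 3, 2 of the 3 markers on the design passed, and Coch had a signal of 5677 in 3-NP and 6548 in saline. Otos was not among the named probe sets used here. Markers of the stria vascularis, which the dissection protocol left out, passed the filter for 5 of 6 genes at day 1 and 4 of 4 at day 3. The 3′ over 5′ ratio of the control probe sets, a measure of RNA integrity and labelling, lay between 2.53 and 3.22 for beta-actin and between 1.17 and 1.46 for GAPDH over the 4 arrays.

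**Figure D1:**
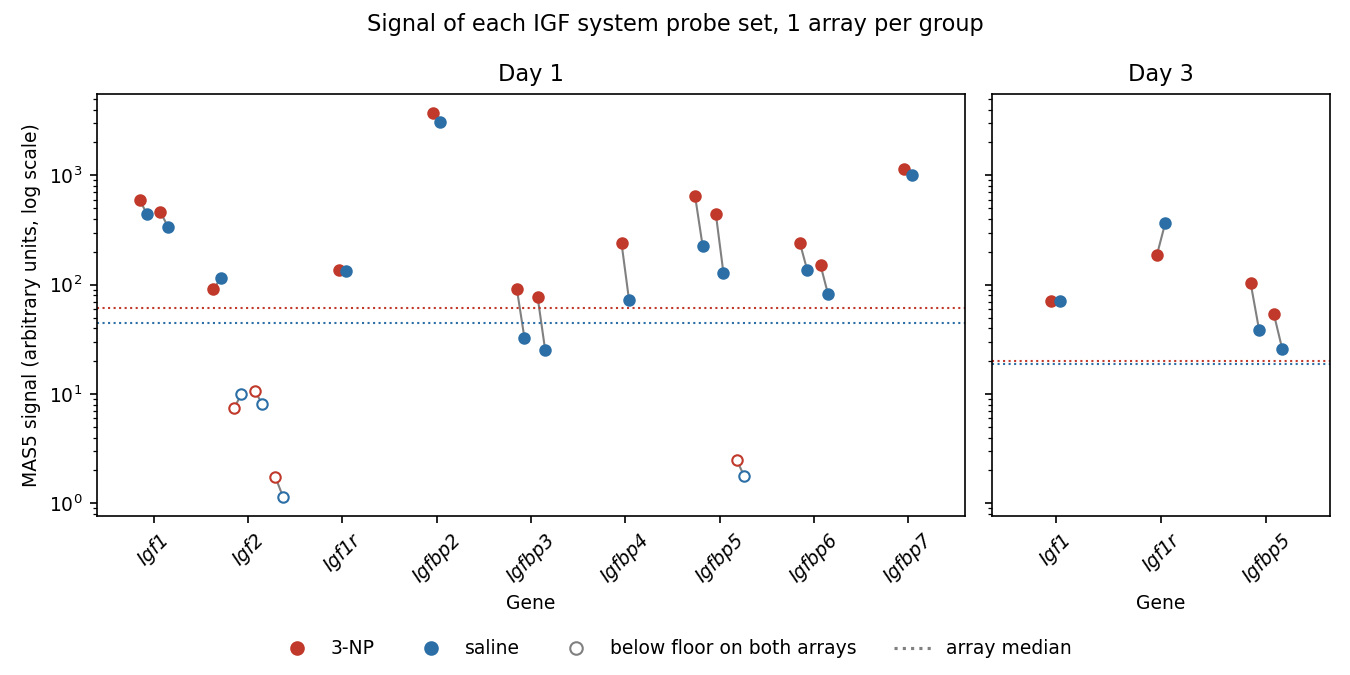
MAS5 signal (arbitrary units, log scale) of each probe set of the IGF system genes at day 1 and day 3, with 3-NP in red to the left of saline in blue, joined by a line, 1 array per group. Dotted lines are array medians and open points lie under the floor on both arrays. Igfbp3, Igfbp4 and Igfbp5 show the steepest upward day 1 differences in 3-NP, and Igf1r at day 3 has its 3-NP point (186) below its saline point (367).

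Igf1, the ligand made by connective tissue and other cells, differed little from the median gene on either day. Its brighter day 1 probe set (1370333_a_at) had a signal of 596 in 3-NP and 439 in saline, and the other (1388469_at) had 463 in 3-NP and 339 in saline. The 3-NP signal was the higher of each pair as deposited, and the relative log2 ratios were 0.00 and 0.01, with 0.44 and 0.45 before the shift of the median gene was removed. The day 3 probe set (1382599_at) had 70.6 in 3-NP and 70.2 in saline, a relative log2 ratio of -0.09. On both days these values lay within the SD of a single probe set.

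Igf2, the ligand best known from fetal growth, was measured by 1 of its 4 probe sets at day 1. That probe set (1367571_a_at) had 90.5 in 3-NP and 114 in saline, a relative log2 ratio of -0.78, or 1.71-fold lower in 3-NP. As deposited the ratio was -0.34, so the 3-NP signal was the lower on both scales. Of the 500 measured genes nearest to it in signal, 8.20% lay at least as far below the median gene. The other 3 probe sets were under the floor on both arrays and give no ratio, with signals of 1.73 to 10.6 in 3-NP and 1.15 to 10.0 in saline. H19, the neighbouring imprinted RNA gene, was under the filter, with 28.4 in 3-NP and 27.6 in saline.

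Igf1r encodes the receptor through which both ligands signal. At day 1 its probe set (1368123_at) had 135 in 3-NP and 134 in saline, equal as deposited (0.01), with a relative log2 ratio of -0.42. At day 3 another probe set (1392492_at) had 186 in 3-NP and 367 in saline, a relative log2 ratio of -1.08, or 2.11-fold lower in 3-NP. That size was 2-fold only just, since it was -0.98 as deposited and -0.99 after quantile normalization. Of the 500 genes nearest in signal at day 3, 4.60% lay at least as far below the median gene. The day 1 and day 3 values come from different probe sets and arrays, and their difference was not tested.

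Igfbp2, a binding protein with a preference for IGF-2, had the brightest signals of the set's probe sets in both day 1 arrays, 3744 in 3-NP and 3068 in saline (1367648_at). Its relative log2 ratio was -0.15, and 0.29 as deposited, so the side of 0 depends on the centring. Igfbp7, the weak IGF binder found around blood vessels, had 1152 in 3-NP and 1016 in saline (1371357_at). The relative log2 ratio of Igfbp7 was -0.26, and 0.18 as deposited. Neither gene differed from the median gene by more than the SD of a single probe set.

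Igfbp3 encodes the main carrier of IGFs in blood, which is also made by fibroblasts and endothelial cells. Its brighter probe set (1386881_at) had 91.1 in 3-NP and 32.7 in saline, a relative log2 ratio of 1.04, or 2.06-fold higher in 3-NP. The dimmer probe set (1367652_at) had 77.2 in 3-NP and 25.3 in saline, a relative log2 ratio of 1.17. Both saline signals were above the floor of 17.1 but under the array median of 44.9, so Igfbp3 entered the measured genes only through the array in which it was the higher. Genes of such low signal spread widely, and 10.2% of the 500 nearest in signal lay at least as far above the median gene. Centred on the 100 normalization probe sets that both designs share, its ratio was 1.00 after rounding and just under 2-fold.

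Igfbp4, which in other systems restrains IGF action until the protease PAPP-A cuts it, had the highest relative log2 ratio of the set at day 1 by brightest probe sets. Its only probe set (1371462_at) had 239 in 3-NP and 71.8 in saline, a relative log2 ratio of 1.30, or 2.46-fold higher in 3-NP. As deposited the 3-NP signal was 3.33-fold the saline signal. Both signals were above their array medians. Of the 500 genes nearest in signal, 3.40% lay at least as far above the median gene.

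Igfbp5, the most conserved binding protein and one that binds extracellular matrix, was higher in 3-NP on both days. At day 1 the brightest probe set (1370960_at) had 645 in 3-NP and 226 in saline, a relative log2 ratio of 1.07. A second day 1 probe set (1387348_at) had 443 in 3-NP and 129 in saline, with 1.34. The 3-NP signal was the higher in each, 2.10-fold and 2.54-fold relative to the median gene. Only 10 of the 500 genes nearest to the brightest probe set in signal lay as far above the median gene, the smallest such share among the 9 genes at day 1. Another probe set (1387347_at) was under the floor, with 2.50 in 3-NP and 1.78 in saline, and gives no ratio. It was designed from the same sequence record as the second probe set (1387348_at), so the 2 disagree in signal.

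At day 3 the brighter Igfbp5 probe set (1396152_s_at) had 103 in 3-NP and 38.5 in saline, a relative log2 ratio of 1.31, or 2.49-fold higher in 3-NP. The other (1397830_at) had 53.7 in 3-NP and 25.7 in saline, with 0.97, or 1.95-fold. Both were designed from the same sequence record, and the suffix of the brighter marks probes that can match more than 1 transcript, so they are not separate measurements of the gene. Of the 500 genes nearest in signal to the brighter probe set, 3.80% lay at least as far above the median gene.

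Igfbp6, which binds IGF-2 in preference to IGF-1, lay between the higher and the level genes. Its probe sets had 243 in 3-NP and 135 in saline (1372168_s_at) and 151 in 3-NP and 81.7 in saline (1387625_at). The relative log2 ratios were 0.41 and 0.44, or 0.85 and 0.88 as deposited. That is above the SD of a single probe set (0.35) but common on these arrays, since 25.4% of the 500 genes nearest in signal to the brighter probe set lay at least as far above the median gene.

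**Figure D2:**
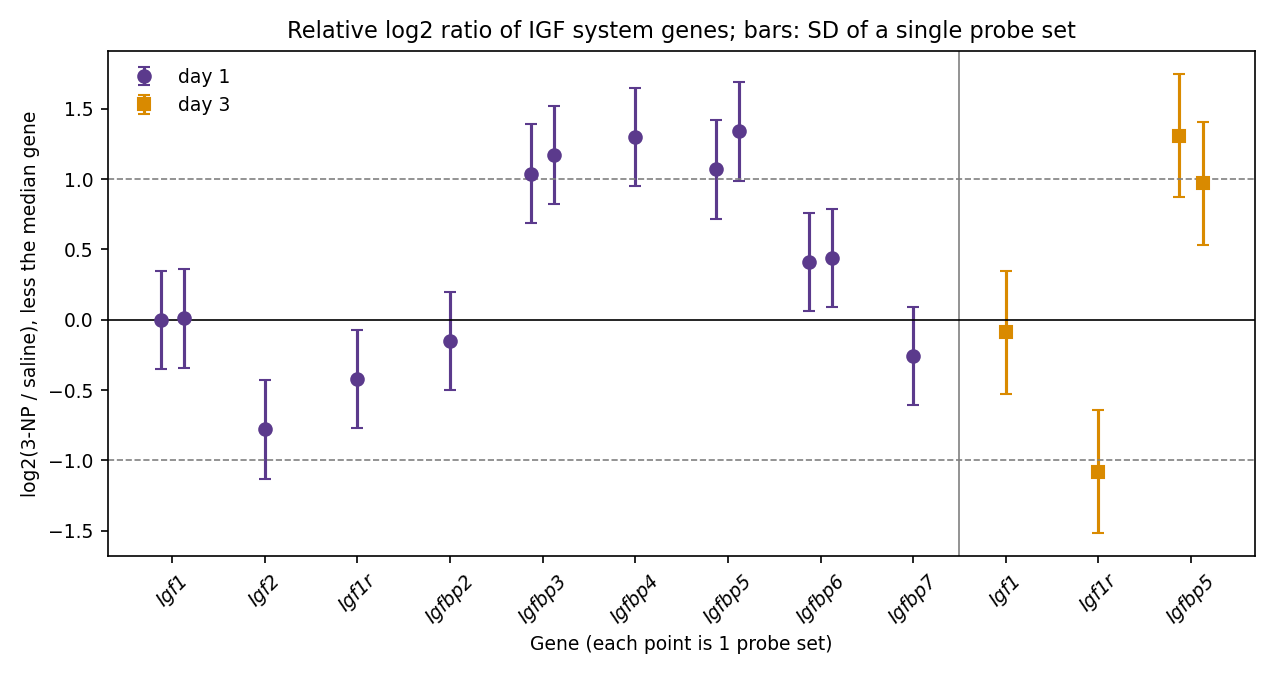
Relative log2 ratio of 3-NP over saline (y axis) for each probe set above the floor, by gene, with day 1 as circles and day 3 as squares. Bars are the SD of a single probe set (0.35 at day 1, 0.44 at day 3), not a spread between animals, and dashed lines mark 2-fold. Igfbp3, Igfbp4 and Igfbp5 lie at or above 1.04 at day 1, and Igf1r at day 3 lies at -1.08.

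Counted by brightest probe sets at day 1, 3 of the 9 genes had at least 2-fold higher signals in 3-NP, against 7.76% of all measured genes, and 0 were at least 2-fold lower, against 6.47%. The same 3 genes were 2-fold higher as deposited, where 17.9% of measured genes were higher and 2.62% lower. Among the 8 genes at or above the array median on both arrays, 2 were 2-fold higher, against 4.78% of the 5581 genes that met the same condition. The 3 higher genes of the first count were all binding protein genes, so 3 of the 6 binding proteins were 2-fold higher and 3 within 2-fold. Of these 3, Igfbp3 was measured only through the 3-NP array, in which it was the higher. The median relative log2 ratio of the 9 genes was 0.00. For all measured genes it is 0.00 by construction, since that median was subtracted. At day 3, 1 of 3 genes was at least 2-fold higher, against 9.21% of measured genes, and 1 was at least 2-fold lower, against 8.18%. All 3 were at or above the array median on both day 3 arrays, where 5.39% of genes were higher and 5.11% lower. Since the genes were chosen with earlier results of these arrays known, these counts are descriptions.

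Where several probe sets of a gene were above the floor their ratios had the same sign relative to the median gene, for Igf1, Igfbp3, Igfbp5 and Igfbp6 at day 1 and for Igfbp5 at day 3. The Igf1 ratios, 0.00 and 0.01, were too near 0 to give a direction. The 2 Igfbp3 probe sets were designed from the same sequence record, as were the day 3 probe sets of Igfbp5. Of the 733 day 1 and 767 day 3 genes with at least 2 measured probe sets above the floor, 83 and 76 were 2-fold apart by the brightest. The next brightest had the same sign in 78 of the 83 and in 64 of the 76. The neighbours Igfbp2 and Igfbp5 had relative log2 ratios of -0.15 and 1.07 at day 1. Igfbp1, the neighbour of Igfbp3, was under the floor on both arrays, with 18.9 in 3-NP and 1.48 in saline.

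**Figure D3:**
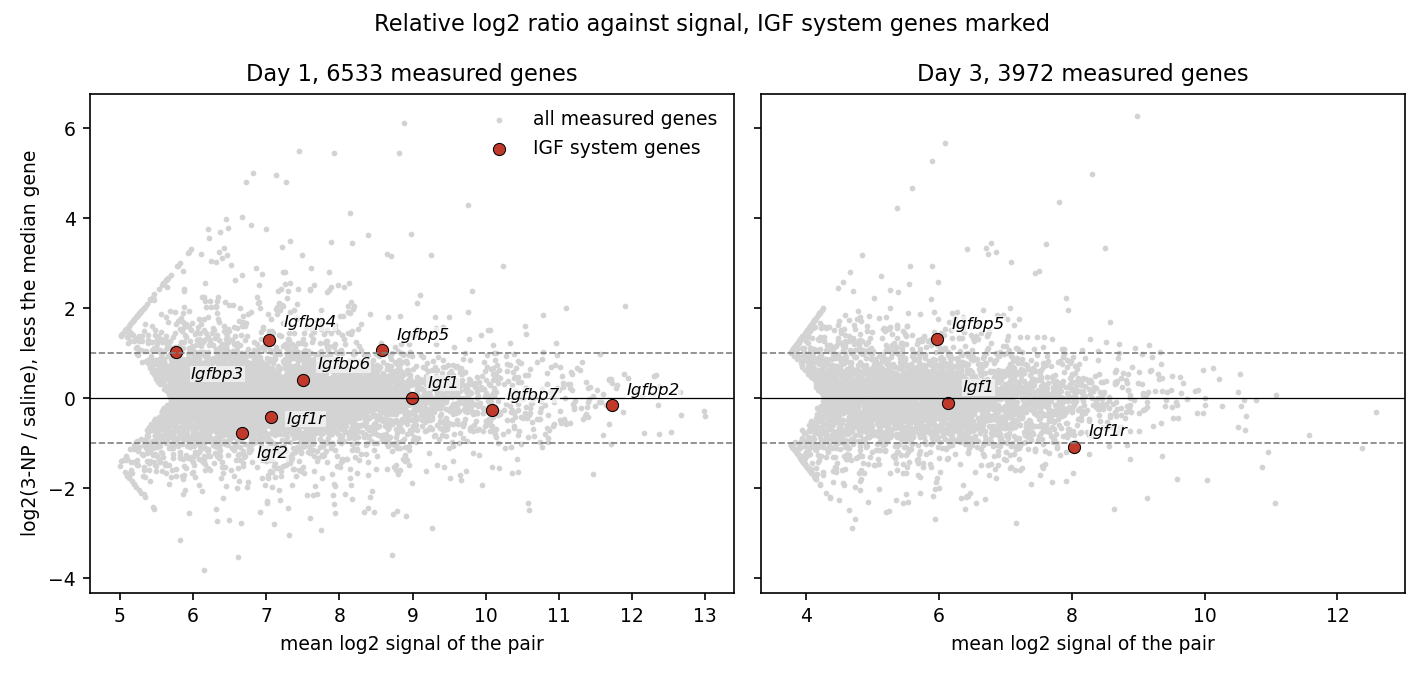
Relative log2 ratio of 3-NP over saline (y axis) against the mean log2 signal of the pair (x axis) for 6533 genes at day 1 and 3972 at day 3, in grey, with the IGF system genes in red. Dashed lines mark 2-fold. Igfbp5 (1.07) sits at the upper edge of genes of like signal at day 1, while Igfbp3 (1.04) lies among dimmer genes that spread more widely.

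The genes nearest to a member in their 2 signals were found by Euclidean distance in log2 signal over the 2 arrays of a day. At day 1, Lrrc41 (distance 0.050), Marcks (0.055) and Ampd3 (0.096) lay nearest to Igfbp4, and Atp9b (0.029), Abhd6 (0.038) and Zdhhc4 (0.053) to Igf2. At day 3, Kctd5 (0.031), Nab2 (0.096) and Clic4 (0.127) lay nearest to Igfbp5. Nearest to Igf1r at day 3 were the cartilage collagen gene Col11a1 (0.086), C13h1orf115 (0.181) and Tbx18 (0.183), a transcription factor gene of the spiral ligament. Col11a1 had 197 in 3-NP and 358 in saline, and Tbx18 had 165 in 3-NP and 351 in saline. The search picked genes by these signals, so their likeness is by construction, and shared regulation or cell type was not tested.

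Other genes of the pathway were taken from 7 lists of 116 genes, of which 61 were measured at day 1 and 14 at day 3. At day 1, 12 had 2-fold higher signals and 3 lower, beside 7.76% and 6.47% of all measured genes, and the median relative log2 ratio was 0.16. As deposited these counts were 17 and 1, beside 17.9% and 2.62%. Of the 12 higher genes, 9 had saline signals under the array median and were measured only through the 3-NP array, in which they were high. Among the 51 pathway genes at or above the median on both arrays, 3 were higher (Cebpd, Dusp1 and Plat) and 3 lower, beside 4.78% and 4.53% of such genes. At day 3, 4 were higher and 0 lower, beside 9.21% and 8.18% of all measured genes, and the median was 0.53. As deposited the day 3 counts were 7 and 0, beside 10.9% and 6.42%. Of those 4 genes, 3 (Stc1, Elk1 and Rps6ka3) were measured only through the 3-NP array, and among the 10 on both arrays Shc1 was the 1 higher gene, beside 5.39% of such genes. The counts by list that follow are read with these shares.

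Among receptors and carriers, Igf2r, which takes IGF-2 to lysosomes, was the only gene measured at day 1, with 509 in 3-NP and 229.7 in saline, a relative log2 ratio of 0.71 (0.50 by its other probe set). Insr, the insulin receptor gene, had 21.9 in 3-NP and 18.6 in saline at day 3, with 0.14. Igfals, which encodes the acid-labile subunit of the circulating IGF complex, and Igfbpl1 were under the floor on both day 1 arrays.

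Of 8 measured genes of binding protein proteolysis, 4 were 2-fold higher at day 1 and 0 lower, but Stc1, Mmp3 and Plau were measured only through the 3-NP array. Of the 5 on both arrays, 1 was higher. Stc1 encodes stanniocalcin 1, an inhibitor of PAPP-A, and had 186 in 3-NP and 30.4 in saline at day 1, a relative log2 ratio of 2.17. Its day 3 signals were 135 in 3-NP and 16.4 in saline, with 2.94, so the 3-NP signal was far the higher on both days by these probe sets. The other Stc1 probe set at day 1 was under the floor on both arrays and gives no ratio. Plat, the tissue plasminogen activator gene, had 883 in 3-NP and 186 in saline (1.81). The matrix metalloproteinase gene Mmp3 was at least 6.33-fold higher and the urokinase gene Plau at least 4.59-fold, both with saline under the floor. The other Plau probe set was at 0.83, under 2-fold. Htra1, a serine protease gene, had 559 in 3-NP and 311 in saline (0.41). Pappa2 was under the floor on both arrays, and Pappa was not among the named probe sets used here.

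Among proteins with an IGFBP domain, 1 of 4 measured genes was at least 2-fold lower at day 1 and 0 higher. Kazald1, an IGFBP-related gene of bone, had 78.0 in 3-NP and 275 in saline, a relative log2 ratio of -2.26. Ccn3 was at -0.49, Ccn2 at 0.16 and Ccn5 at 0.46. At day 3 Crim1, a transmembrane protein gene, was at -0.18.

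Receptor adaptors and feedback genes had 3 of 11 measured genes 2-fold higher at day 1, and 1 was lower. All 3 higher genes, Socs3, Ptpn1 and Trib3, were measured only through the 3-NP array, and of the 8 on both arrays 0 were higher. The cytokine signalling inhibitor gene Socs3 was at least 9.49-fold higher, with 220.5 in 3-NP and 4.09 in saline. Ptpn1, which encodes a phosphatase of the insulin and IGF receptors, had 158 in 3-NP and 21.7 in saline (2.42). Trib3, a pseudokinase gene that can restrain AKT, was at 1.09 by its brightest probe set but at 0.01 and -0.68 by others. Grb14, an adaptor gene that inhibits the insulin receptor, had 99.2 in 3-NP and 149.7 in saline (-1.03), which was -0.59 as deposited. At day 3, 1 of 4 was higher, the adaptor gene Shc1, with 352 in 3-NP and 153 in saline (1.10), and Ptpn1 was at 0.93.

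Of 24 measured PI3K, AKT and mTOR genes, 0 had 2-fold higher signals at day 1 and 1 lower, with a median relative log2 ratio of -0.19. The shares of all measured genes were 7.76% and 6.47%. All 24 were at or above the array median on both arrays, where 4.78% of genes were higher and 4.53% lower. In 24 genes such shares come to very few, so neither count is read as a difference. The lower gene was Pik3r3, a regulatory subunit of PI3K, with 63.9 in 3-NP and 98.5 in saline (-1.06, and -0.62 as deposited). Pik3r2, another regulatory subunit, was at -0.33 by its brightest probe set and at -1.13 by the other. Akt1 was at 0.25 and Akt2 at -0.63. At day 3 all 3 measured genes of this list, Pik3ca, Pik3cb and Pik3cd, were within 2-fold by brightest probe sets, although a dimmer one of Pik3cb was at -1.41.

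In the RAS and MAP kinase list, 3 of 10 measured genes were 2-fold higher at day 1 and 0 lower, all of them feedback inhibitors. Of these, Dusp5 and Spry2 were measured only through the 3-NP array. Dusp1, a phosphatase gene of MAP kinases, had 648 in 3-NP and 151 in saline (1.66), Dusp5 was at least 4.95-fold higher and Spry2 was at 1.21. At day 3, 2 of 3 were higher, the ribosomal S6 kinase gene Rps6ka3 (1.14) and the transcription factor gene Elk1, at least 2.04-fold higher with saline under the floor. In the list of IGF mRNA-binding proteins and transcription factors, 2 of 3 measured genes were higher at day 1, Cebpb of them only through the 3-NP array. Cebpd, which encodes a C/EBP factor known to act on the rat Igf1 gene, had 714 in 3-NP and 75.4 in saline (2.81), and Cebpb was at least 9.96-fold higher with saline under the floor. At day 3 Igf2bp2, an mRNA-binding protein gene, was at 0.09.

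**Figure D4:**
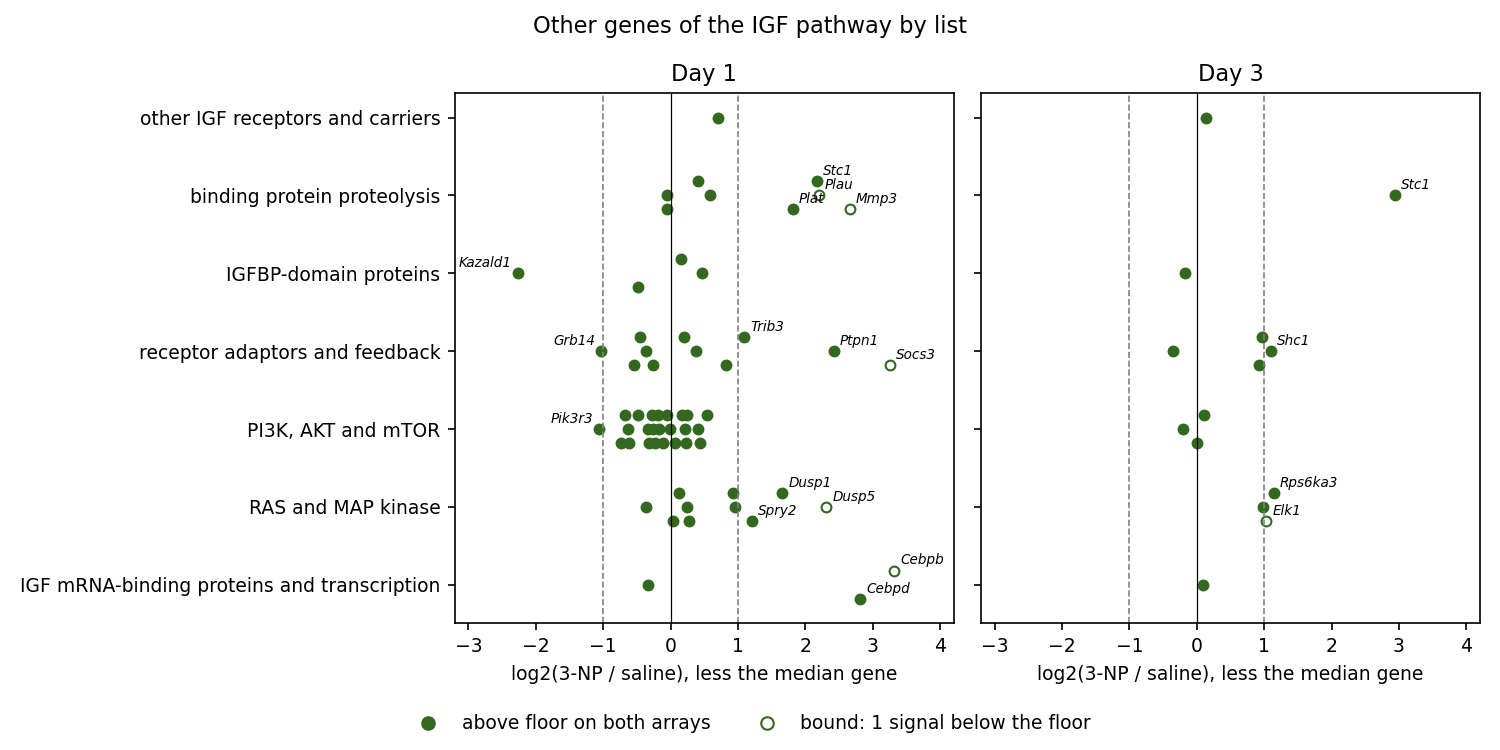
Relative log2 ratio of 3-NP over saline (x axis) of the other measured IGF pathway genes by list, at day 1 and day 3, each point 1 gene by its brightest probe set. Open points are bounds with 1 signal under the floor, dashed lines mark 2-fold, and genes past it are named. The 24 PI3K, AKT and mTOR genes have a day 1 median of -0.19, and Stc1 lies at 2.17 at day 1 and 2.94 at day 3.

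Some markers of other cells also differed between the arrays that gave these values. Beside the day 1 counts stand 7.76% higher and 6.47% lower of all measured genes. For genes at or above the array median on both arrays these shares were 4.78% and 4.53%. At day 3 the shares of all measured genes were 9.21% and 8.18%. Summed signals are as deposited, with the shift of the median gene (0.44 at day 1, 0.10 at day 3) left in. They also include list genes under the filter. At day 1, 2 of 6 measured macrophage markers were at least 2-fold higher and 0 lower, while Aif1, Itgam and Ptprc were under the floor on both arrays. Of the 4 at or above the median on both arrays, 1 was higher (Lgals3). The summed signals over the list were 3249 in 3-NP and 1636 in saline. Most of each sum was Lyz2, with 1876 in 3-NP and 1183 in saline and a relative log2 ratio of 0.23. Of 5 measured endothelial and pericyte markers 3 were higher and 1 lower, with summed signals of 822 in 3-NP and 385 in saline. Of the 2 on both arrays, 1 was higher (Kdr) and 0 lower. Plvap and Mcam were measured only through the 3-NP array, with saline under the floor, and the other Mcam probe set was at 0.82. Erythrocyte markers had summed signals of 7521 in 3-NP and 3832 in saline, with 0 of 2 measured genes 2-fold apart. Fibrocyte markers had 3 higher and 5 lower of 11, with summed signals of 7890 in 3-NP and 12626 in saline. Of the 9 fibrocyte markers on both arrays, 1 was higher and 5 lower. Bone and cartilage markers had 0 higher and 6 lower of 7, with 665 in 3-NP and 1644 in saline. Of the 4 of them on both arrays, 3 were lower. Stria and melanocyte markers had 0 higher and 4 lower of 5, with 1237 in 3-NP and 2501 in saline. Skeletal muscle markers had 0 of 3 measured genes 2-fold apart, and 2 higher as deposited. Neuron and Schwann cell markers had 2 higher and 1 lower of 5, also as deposited. Of the 4 of them on both arrays, 1 was higher (Egr2, at -0.11 by its other probe set) and 1 lower. As deposited, the day 1 counts of higher and lower genes were 4 and 3 for fibrocyte, 0 and 4 for bone and cartilage, 0 and 2 for stria and melanocyte, 4 and 0 for endothelial and pericyte and 2 and 0 for macrophage markers, and 1 erythrocyte marker was higher. At day 3, 3 of 4 stria and melanocyte markers were lower and 1 was higher, with 1552 in 3-NP and 3312 in saline. The 2 on both arrays, Tyr and Atp1b2, were lower, beside 5.11% of such genes. The higher gene, Tyrp1, gives a bound with saline under the floor, and its other probe set was at 0.69. Of 2 measured fibrocyte markers at day 3, 1 (Tbx18) was lower and 0 higher. Among endothelial and pericyte markers 0 of 2 were 2-fold apart at day 3, and among bone and cartilage markers 0 of 1. Both measured macrophage markers, Cd163 and Mrc1, were 2-fold lower at day 3 relative to the median gene (-1.07 and -1.08) but not as deposited (-0.97 and -0.98). Cd163 was measured only through the saline array, in which it was the higher, and its other probe set was at -0.55. The part of these cells in the ratios of the IGF system genes was not tested.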

How the data were processed

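Tissue RNA of 3-NP and saline ears was hybridised to Affymetrix arrays, 1 array per group at day 1 and day 3. The deposited tables hold linear signal intensities, 1 per probe set, for which the submitters' processing notes name MAS5. Neither a scaling target nor detection calls were found in the sources used here. No gene has replicates, so the number of arrays limits the precision.

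Probe sets were named from the platform annotation, with symbols updated through gene identifiers to the GRCr8 RefSeq genes. Of the probe sets outside the controls, 12783 of 15866 had 1 symbol at day 1, 312 several and 2771 none; at day 3 7564 of 15276 had 1 symbol, 100 several and 7612 none. The floor (30th percentile) was 22.0 for 3-NP and 17.1 for saline at day 1, and 9.85 for 3-NP and 9.22 for saline at day 3. A gene was represented by its brightest probe set. Calculations used Python 3.11.15, numpy 2.4.6, pandas 2.3.3 and statsmodels 0.14.6, and were tested on simulated data. The simulation had less noise than the SD of a single probe set and planted large differences in brighter genes only. It therefore does not cover calls near 2-fold or dim genes.

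The genes and lists were chosen with earlier results of these data known. Named were all 9 genes; per pathway list and day up to 4 genes at least 2-fold apart, or else the furthest from 0; the 3 genes nearest in signal to the highest and the lowest gene of each day; and 5 lateral wall markers. Htra1, Ccn2, Ccn3, Ccn5, Akt1, Akt2, H19, Pik3r2, further probe set values and genes under the floor were added after their values were seen. So were Ptpn1 at day 3, the day 3 PI3K genes and the Col11a1 and Tbx18 signals. The same holds for the cell markers other than Coch, Gjb2, Gjb6 and Car3. Alternatives changed the centring, normalization, floor, filter or probe set rule. The 4 columns of the tables were all used.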

Additional observations from a re-analysis of the deposited data

Results flagged for a closer look

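Sos1, which encodes the exchange factor that links receptor adaptors to RAS, had opposite signs on the 2 days, each beyond the SD of a single probe set. Its relative log2 ratio was -0.45 at day 1, with 122 in 3-NP and 122 in saline, and 0.97 at day 3, with 104 in 3-NP and 49.8 in saline. As deposited the day 1 ratio was -0.01, so its sign there rests on the centring. The days used different probe sets and 1 array per group, and the difference was not tested. Of the 8 IGF system and pathway genes measured on both days it was the only one with such opposite values.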

How the results depend on the processing

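Under 9 alternatives Igfbp4 and Igfbp5 remained at least 2-fold higher at day 1, and Igfbp5 at day 3. Their relative log2 ratios ranged from 1.26 to 1.74, 1.03 to 1.51 and 1.14 to 1.41 over the 7 that give a gene ratio. Igfbp3 ranged from 1.00 to 1.48 and fell just under 2-fold when centred on the shared normalization probe sets. Igf1r at day 3 ranged from -1.11 to -0.98. Leaving the signals as deposited moved the median of the 9 genes at day 1 to 0.44, the day 3 count of IGF system genes 2-fold apart to 1, and that of the other pathway genes to 7. Quantile normalization also gave a day 3 count of 1, since Igf1r was at -0.99. Counting only genes at or above the array median on both arrays, a choice made after seeing the data, left 6 other pathway genes 2-fold apart at day 1 in place of 15, and 1 at day 3 in place of 4. It left Igfbp3 out, with 2 IGF system genes 2-fold apart on each day. By construction, leaving out the centring adds the shift of the median gene. It put Igf1, Igfbp2 and Igfbp7 at 0.44, 0.29 and 0.18 at day 1, and Igf2 at -0.34. Single-array groups, dim Igfbp3 saline signals and 3 genes at day 3 limit what can be read. No paired analysis was possible because each group holds 1 array.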
